A study of Oncorhynchus gorbuscha with 76 samples.

Results

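The mitochondrial respiration genes of pink salmon (Oncorhynchus gorbuscha) were followed through the return migration in muscle, head kidney and gonads. The members were the genes of both deposited count tables whose symbol begins as a subunit or assembly factor of a respiratory complex, an ATP synthase subunit, a listed enzyme of the citric acid cycle, an electron transfer flavoprotein, a TIMM or TOMM protein import gene or an uncoupling protein. The rule found 54 of 40756 genes: 17 complex I subunits, 4 complex I assembly factors, 3 complex II assembly factors, 8 ATP synthase genes, 1 pyruvate dehydrogenase gene, 5 genes of the citric acid cycle and malate dehydrogenases, 2 genes with the prefix of the electron transfer flavoprotein, 6 inner and 7 outer membrane import genes, and ucp2. No symbol matched the rule for the subunits of complexes II, III and IV or for cytochrome c, and 32639 genes carry only a LOC number. The set thus speaks of complex I and ATP synthase among the respiratory complexes, and only of those of their genes with a matching symbol.

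The fish were labelled as ocean, river or spawning, and as female or male, and each of the 18 groups of stage, sex and tissue held 3 to 5 libraries, 76 in all from 28 fish. No treatment, genetic change or age is named in the labels, and stage and place of capture cannot be told apart. Total counts ran from 12719694 to 29286325 per library, and 52 of the 54 members had a count in every library. Levels below are read counts relative to library size (CPM), scaled apart for each tissue and sex, and a call is an adjusted p under 0.05 over all genes tested in edgeR's quasi-likelihood test. Libraries of a group carry different fish numbers, no batch is named, and the p-values measure the spread between these fish.

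Complex I takes electrons from NADH and pumps protons across the inner mitochondrial membrane, ATP synthase uses that gradient to make ATP, and the citric acid cycle supplies the electrons. Almost all of these proteins are made in the cytosol and enter through the TOMM channel of the outer and the TIMM channels of the inner membrane. Uncoupling proteins are carriers of the inner membrane, and UCP2 of mammals is abundant in immune cells. Salmon swim long distances on oxidative metabolism and stop feeding before they spawn, and pink salmon die after spawning.

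Defining markers were present in most labelled tissues. Summed fast fibre markers (3 of 7 listed genes passed the filter) reached 26250 to 125500 CPM in muscle, and summed myeloid markers 1236 to 4807 CPM in head kidney. In labelled testes, 18 male germ cell markers summed to 7190 to 14030 CPM in the ocean and 8958 to 18200 CPM in the river but to 13.2 to 27.1 CPM at spawning. In ovaries the 5 oocyte markers bmp15, buc, figla, gdf9 and lhx8a did not pass the filter on low counts, and the other 3 summed to 14.4 to 58.9 CPM. The muscle library labelled river male 6 stood apart from the other river males in several members, and the head kidney library of ocean male 8 from the other ocean males. The muscle library of spawning female 5 differed from the other spawning females in summed levels given below. It was flagged for none of the members tested for a library far from its group. Counts of called members are given with and without these libraries for some comparisons, and values of single members mostly with them only.

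Head kidney had the fewest called members. From ocean to spawning 1 of 52 tested members rose in females and 1 in males, and none fell, against rises of 4.77% and 4.17% and falls of 3.15% and 2.6% of all genes. Head kidney libraries of a group differed in renal tubule markers. These summed to 1834 and 1854 CPM in spawning females 1 and 2, where the members held 0.23% and 0.22% of all counts. In spawning females 4 and 5 they summed to 12.5 and 7.16 CPM, and the members held 0.16% and 0.11%. The part of tubule content in the low number of calls was not tested. Muscle gave 9 rises and 4 falls in females (25.8% and 24.7% of all genes) and 9 rises and 16 falls in males (20.2% and 20% of all genes). The ovary gave 2 rises and 19 falls among 53 tested (16.3% and 20% of all genes), and the testis 10 rises and 27 falls (40.7% and 43.2% of all genes). In bulk tissue, fewer cells of a type and less RNA per cell cannot be told apart. Of the members, ndufb10, sdhaf3, timm22, tomm40l and ogdhb were called in none of the 6 comparisons, and ogdhb, with few counts, passed the filter in none of them. Across tissues, 10 members rose in 1 tissue and fell in another. They were 19.6% of the 51 members tested in all 6 comparisons, against 34.1% of all genes tested in all 6. Separation without overlap was also counted. All spawning libraries lay above all ocean libraries for 7 of 52 members in female and 12 of 52 in male muscle. They lay below for 1 and 17 members. The member counts above and below were 1 and 0 in female and 1 and 2 in male head kidney. They were 2 and 14 of 53 in ovaries and 7 and 22 of 53 in testes. Of all genes, all spawning libraries lay above all ocean libraries for 22.2% in female and 23.8% in male muscle. They lay below for 21.5% in each sex. The shares above and below were 9.94% and 11.9% in female and 8.4% and 5.84% in male head kidney. In ovaries they were 13.2% and 15.8%, and in testes 36.1% and 38.1%.

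**Figure D1:**
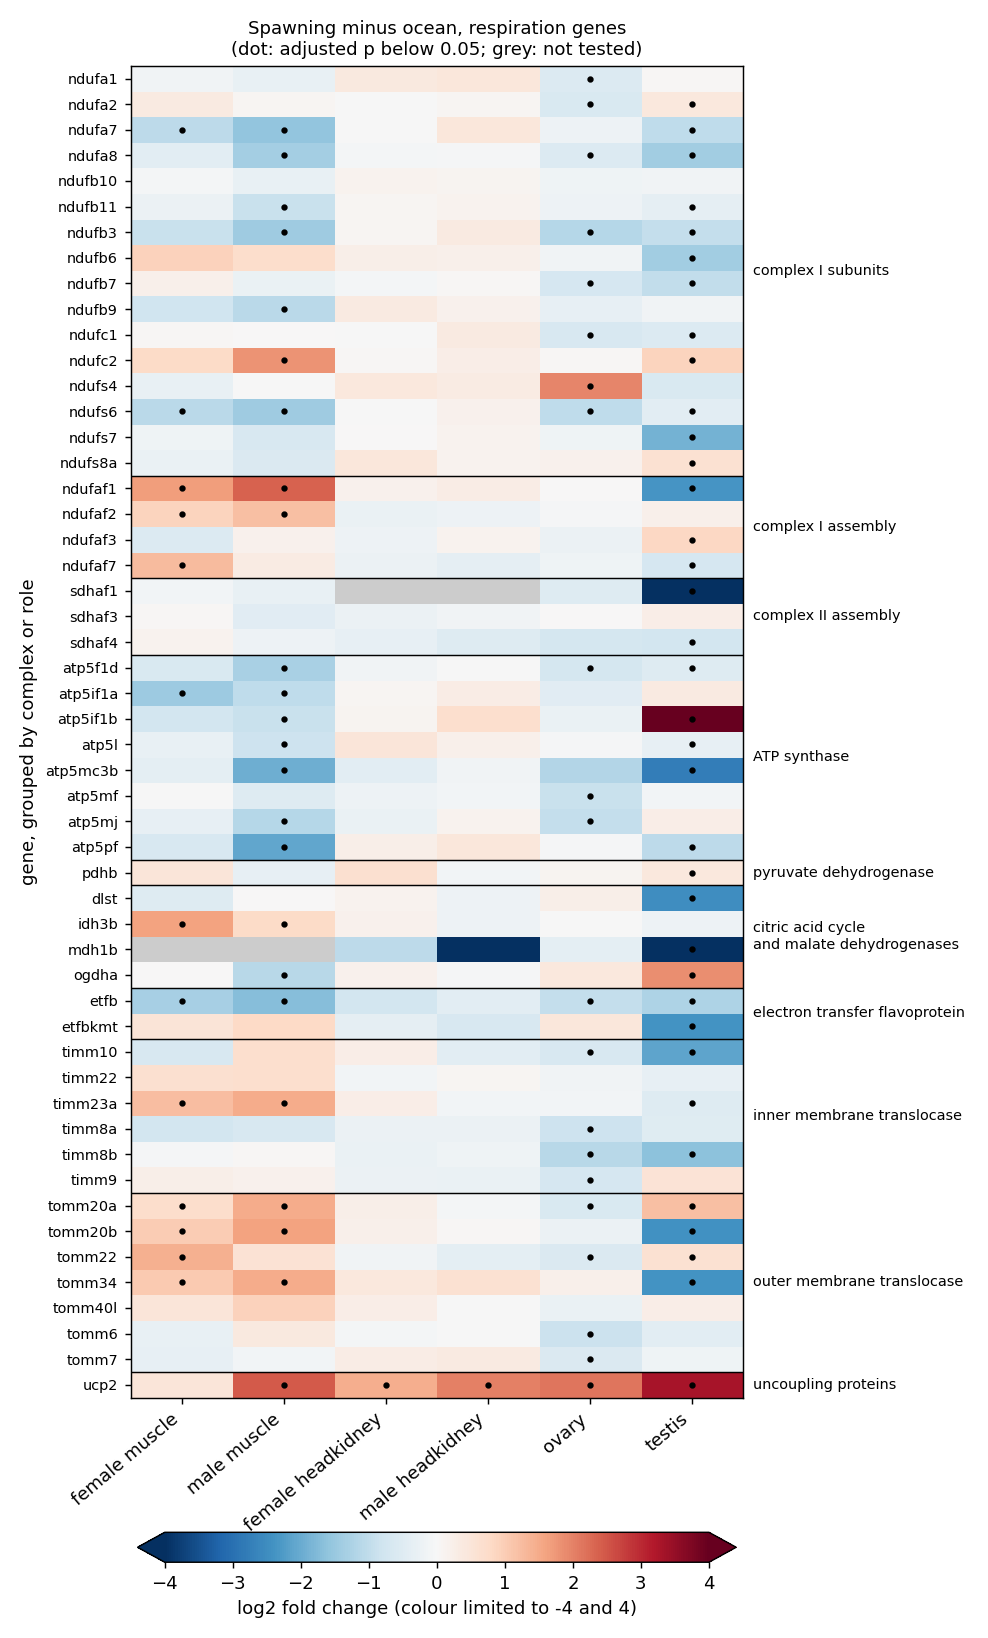
Log2 fold change from ocean to spawning of 52 of the 53 members that passed the filter in at least 1 fit (rows, grouped by complex or role) in 6 combinations of tissue and sex (columns); red is higher at spawning, blue lower, and a dot marks an adjusted p below 0.05. The head kidney columns carry a dot only at ucp2, while most dots in the ovary and testis columns lie on blue.

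ucp2, the mitochondrial carrier that ends the list of members, rose from ocean to spawning in 5 of the 6 combinations. It was the only member called upward in at least 5 of them, which 328 of 19345 genes tested in all 6 (1.7%) shared. In female head kidney it stood at 36.6, 32.9, 38.5 and 34.3 CPM in the ocean, 65.9, 101, 88.0 and 66.2 CPM in the river and 99.2, 77.7, 89.6 and 124 CPM at spawning. All river and spawning libraries lay above all ocean libraries. The log2 fold change was 1.45 ± 0.18 (SE) from ocean to spawning (adjusted p = 0.00187) and 1.17 ± 0.18 from ocean to river (adjusted p = 0.0455), the only member called between those stages in head kidney, where 0.117% of all genes were called in females and 0% in males. The river call was lost when any of 10 of the 12 libraries was left out (adjusted p = 0.0512 to 0.192) and without the filter (0.0562). In male head kidney the ocean libraries held 26.1, 21.5, 48.3 and 31.3 CPM, the river libraries 52.2, 91.4, 48.0 and 61.6 CPM and the spawning libraries 88.1, 89.8, 212 and 124 CPM. Every spawning male again exceeded every ocean male, by 2.02 ± 0.35 on the log2 scale (adjusted p = 0.00716).

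The gonads showed the same direction for ucp2. In ovaries it was at 16.0, 24.0, 24.2 and 32.0 CPM in the ocean, 30.2, 19.8, 26.7 and 27.8 CPM in the river and 116, 95.2, 84.6, 106 and 133 CPM at spawning. Ocean and river overlapped, and all spawning ovaries lay above both (2.16 ± 0.21 from ocean to spawning, adjusted p = 1.32e-05). In testes it climbed from 35.1, 50.6, 43.6, 40.5 and 44.2 CPM in the ocean to 109, 58.8, 69.2, 59.1 and 113 CPM in the river and 343, 409.8, 511, 446 and 416 CPM at spawning. No stage overlapped another, with log2 fold changes of 0.94 ± 0.20 from ocean to river (adjusted p = 0.0035) and 3.31 ± 0.22 from ocean to spawning (adjusted p = 1.69e-09).

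Muscle held little ucp2. In male muscle the libraries read 0.726, 0.523, 1.31 and 1.21 CPM in the ocean, 0.493, 0.571, 0.263, 0.237 and, in river male 6, 2.71 CPM in the river, and 7.24, 4.16 and 4.09 CPM at spawning. The rise from ocean to spawning was 2.45 ± 0.73 (adjusted p = 0.0197), and the call was lost without ocean male 1 (adjusted p = 0.0504), ocean male 3 (0.0558) or spawning male 7 (0.0529). In female muscle the values ran from 0.939 to 1.68 CPM in the ocean and from 1.40 to 2.56 CPM at spawning, and the difference of 0.48 was not called with TMM scaling but was called by library size alone (1.26 ± 0.38, adjusted p = 0.0115). Summed myeloid markers (cd68, csf3r, marco, ncf1 and ncf4, of which marco did not pass the filter in muscle and testis) ran over a higher range at spawning than in the ocean. They were set beside ucp2 by these ranges only, not library by library. Their summed level went from 1386 to 1813 CPM in the ocean to 2299 to 4807 CPM at spawning in female head kidney, from 1236 to 1851 up to 2341 to 3178 CPM in male head kidney, from 288 to 507 up to 453 to 695 CPM in ovaries and from 12.02 to 16.8 up to 220.4 to 363 CPM in testes. In muscle they went from 24.0 to 43.2 up to 48.5 to 64.6 CPM in females and from 22.2 to 27.0 up to 48.6 to 77.6 CPM in males. In female head kidney, renal tubule markers summed to 788 to 1041 CPM in the ocean, 4.69 to 815 CPM in the river and 7.16 to 1854 CPM at spawning. Interrenal markers summed to 15.5 to 22.5, 17.2 to 7293 and 28.3 to 8705 CPM. The part of these markers in the ucp2 result was not tested.

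**Figure D2:**
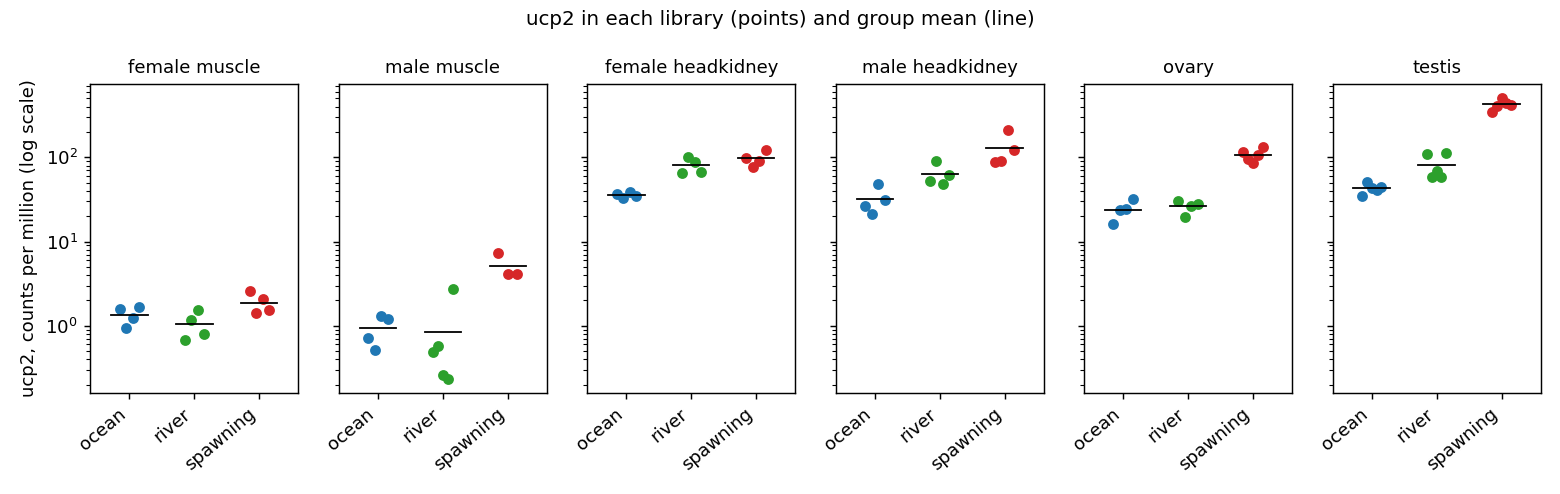
ucp2 in CPM on a log axis in every library (points) with the group mean (line), by stage, for each tissue and sex. In male muscle the highest river point is river male 6 at 2.71, and in testes the 3 stages do not overlap.

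In muscle the members parted by role. Subunits of complex I and ATP synthase fell or were not called, except ndufc2, which rose in males. Complex I assembly factors and outer membrane import genes rose or were not called. In males 7 of 8 ATP synthase genes fell (median log2 fold change -1.08), 7 of 17 complex I subunits fell and 1 rose (median -0.58), 2 of 4 complex I assembly factors rose (median 0.77), and 3 of 7 outer and 1 of 6 inner membrane import genes rose (medians 0.92 and 0.41). In females 1 of 8 ATP synthase genes and 2 of 17 complex I subunits fell (medians -0.49 and -0.22), 3 of 4 assembly factors rose (median 1.09), and 4 of 7 outer and 1 of 6 inner membrane genes rose (medians 0.69 and 0.08). Over all genes tested the median was -0.01 in females and 0.03 in males. Of these genes, 25.8% rose and 24.7% fell in females, and 20.2% rose and 20% fell in males. The female falls among ATP synthase genes and complex I subunits were below that share, as were the inner membrane rises in both sexes. Of 52 members tested in both sexes, 7 rose in both, 4 fell in both and none went opposite ways. Of the 21123 genes tested in both, the shares were 16.6%, 14.8% and 0.114%. No member passed the test of a sex difference in the change (0.0506% of all genes were called, 6 members had an unadjusted p under 0.05, and DESeq2 called 1, ogdha).

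The scale sets the sign of the ATP synthase and complex I medians. By library size alone the median over all genes rose by 0.76 in female and 1.18 in male muscle, and the ATP synthase median became 0.15 and 0.10 and the complex I median 0.46 and 0.59. Then 20 members rose and none fell in females, and 30 rose and 2 fell in males. The shares of all genes called on this scale are not given, so these counts are not set against them. Another scale shifts all genes by nearly the same amount, so values relative to all genes move little by construction. In males the ATP synthase median minus that of all genes was -1.11 with TMM scaling and -1.08 by library size, and for outer membrane import it was 0.88 and 0.82. Between ocean and spawning, summed fast fibre markers went from 73520 to 105600 CPM down to 26250 to 71940 CPM in females and from 82170 to 125500 down to 29380 to 33990 CPM in males, and their part in the scaling was not tested.

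**Figure D3:**
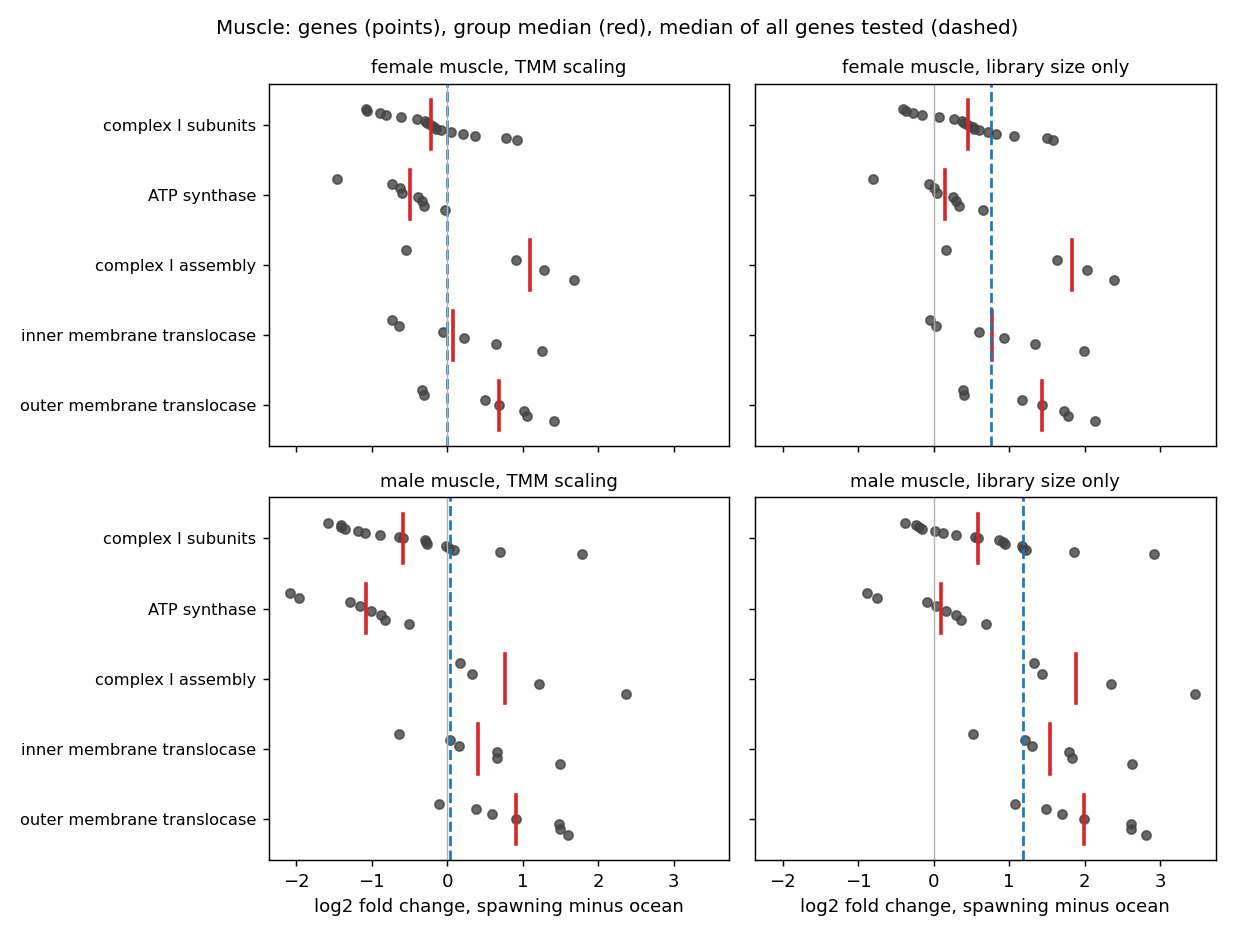
Log2 fold change from ocean to spawning in muscle of each member (points) by role, with the median of the role (red) and of all genes tested (dashed), for TMM scaling (left) and library size only (right). Both scales place ATP synthase to the left and outer membrane import to the right of the dashed line, while the zero line falls elsewhere.

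Among complex I subunits, ndufa7, an accessory subunit, was at 116, 86.1, 65.8 and 84.7 CPM in ocean females and at 22.9, 36.5, 31.3 and 78.3 CPM in spawning females. Only the last of these, spawning female 5, reached the ocean range, and the fall of 1.06 ± 0.33 (adjusted p = 0.0169) lost its call without ocean female 2 (adjusted p = 0.0546). In males it went from 64.7, 69.5, 66.3 and 104 CPM to 25.4, 25.6 and 25.5 CPM with no overlap (log2 fold change -1.58 ± 0.29, adjusted p = 0.00307). ndufs6, another accessory subunit, fell by 1.41 ± 0.29 in males (adjusted p = 0.00435) and by 1.08 ± 0.40 in females (adjusted p = 0.0374), where leaving out any of 7 of the 12 libraries ended the call (adjusted p = 0.0574 to 0.0889). Under library size alone neither gene was called in either sex, with log2 fold changes of -0.37 and -0.38 for ndufa7 and -0.41 and -0.24 for ndufs6.

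ndufc2, also an accessory subunit, went the other way in males. Its ocean libraries held 131, 231, 262 and 309 CPM and its spawning libraries 538, 861 and 1013 CPM. The river males held 304, 397, 344 and 241 CPM, and river male 6 held 997 CPM, within the spawning range. The rise was 1.78 ± 0.51 (adjusted p = 0.016), and without spawning male 9 it was 1.60 and not called (adjusted p = 0.0563).

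Of the ATP synthase genes, atp5pf, the coupling factor of the peripheral stalk, fell from 24.8, 28.3, 15.4 and 41.4 CPM in ocean males to 4.297, 5.87 and 9.16 CPM in spawning males, without overlap (log2 fold change -2.09 ± 0.40, adjusted p = 0.00348). atp5mc3b, a copy of the gene for the rotating c subunit, fell from 102, 126, 114 and 233 CPM to 30.4, 42.2 and 38.2 CPM (-1.96 ± 0.37, adjusted p = 0.00334). In females the only call was atp5if1a, whose product inhibits ATP hydrolysis by the enzyme: 38.6, 28.9, 35.3 and 35.6 CPM in the ocean and 5.12, 10.0, 7.93 and 27.1 CPM at spawning (-1.46 ± 0.40, adjusted p = 0.00745). The spawning females lay below the ocean females, spawning female 5 by the least. By library size alone atp5if1a was not called in females (-0.80, adjusted p = 0.0582) or in males (0.17, against -1.01 with TMM scaling).

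The assembly factor ndufaf1 rose in both sexes. It went from 5.56, 6.00, 3.78 and 7.52 to 11.9, 20.7, 17.7 and 22.8 CPM in females (1.67 ± 0.32, adjusted p = 7.98e-04). In males it went from 3.22, 3.28, 5.24 and 3.97 to 16.7, 16.3 and 28.2 CPM (2.37 ± 0.72, adjusted p = 0.0212), with no overlap of ocean and spawning in either sex. The male call was lost without ocean male 1, ocean male 3 or spawning male 9 (adjusted p = 0.0524 to 0.0715). ndufaf7, a methyltransferase that acts on a complex I subunit, rose by 1.27 ± 0.23 in females (adjusted p = 4.77e-04), and ndufaf2 rose by 1.21 ± 0.30 in males (adjusted p = 0.00958).

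Some import genes rose beside them, in the numbers given above for each role. timm23a, a copy of the gene for the main inner membrane channel, went from 37.1, 36.9, 21.2 and 26.3 to 68.5, 78.4, 57.7 and 84.3 CPM in females (1.25 ± 0.25, adjusted p = 0.00103). In males it went from 17.1, 17.5, 20.5 and 25.4 to 36.2, 59.1 and 75.0 CPM (1.498 ± 0.39, adjusted p = 0.0116). All spawning libraries lay above all ocean libraries in both sexes, as they did for 22.2% of all genes in females and 23.8% in males. tomm22, a receptor subunit of the outer channel, rose in females from 4.38, 3.63, 2.88 and 3.91 to 8.10, 11.9, 7.01 and 12.4 CPM (1.41 ± 0.29, adjusted p = 0.00129), and tomm34, a cytosolic helper of import, by 1.06 ± 0.31 (adjusted p = 0.0115). Both copies of the receptor gene tomm20 rose: tomm20a by 0.69 ± 0.22 in females and 1.49 ± 0.41 in males, and tomm20b by 1.01 ± 0.30 and 1.60 ± 0.46 (adjusted p from 0.0121 to 0.0178). Salmon genomes carry such paired copies, and reads shared between near-identical copies could have been split by the counting, so values of single copies are uncertain. Without spawning male 9, ndufaf1, ndufc2, timm23a, tomm20a and tomm20b were not called in males, and the members then gave 2 rises and 13 falls. That library held 35.4 CPM of summed erythrocyte markers, against 9.68 and 6.88 CPM in spawning males 7 and 8. Its summed complex I subunits (1874 against 1227 and 1533 CPM) and import genes (247 against 158 and 195 CPM) were also the highest of its group. The part of its make-up in these rises was not tested. tomm20a in females lost its call without ocean female 5 (adjusted p = 0.0505).

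The enzymes around the cycle differed from each other. idh3b, a subunit of NAD-dependent isocitrate dehydrogenase, rose in females from 44.3, 52.3, 34.0 and 36.1 to 183, 99.1, 84.7 and 144 CPM (1.61 ± 0.29, adjusted p = 5.30e-04). In males its rise of 0.77 ± 0.26 (adjusted p = 0.0311) was lost without ocean male 1 or 3 or spawning male 8 or 9. ogdha, the first subunit of the 2-oxoglutarate dehydrogenase complex, fell in males from 214, 273, 209 and 188 to 109, 98.8 and 102 CPM (-1.10 ± 0.27, adjusted p = 0.0097), and by library size alone it did not differ in a called way (0.05, adjusted p = 0.912). etfb, which hands electrons from fatty acid oxidation to the respiratory chain, fell by 1.34 ± 0.40 in females (adjusted p = 0.0124) and by 1.70 ± 0.40 in males (adjusted p = 0.00738), and neither fall was called by library size alone (-0.68 and -0.49).

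**Figure D4:**
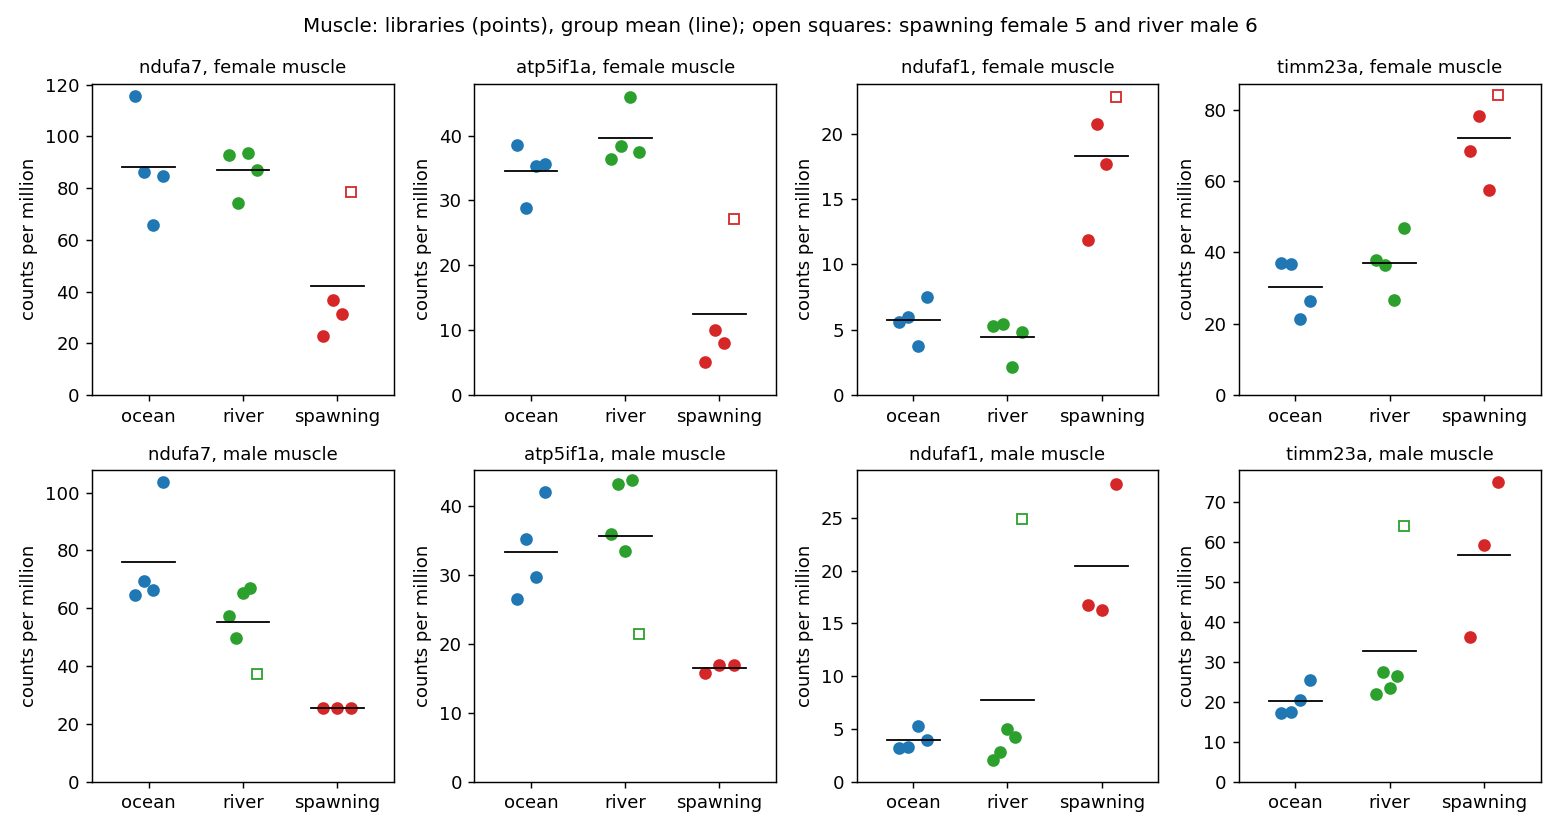
CPM of 4 members in every muscle library (points) by stage with the group mean (line), females above and males below; open squares mark spawning female 5 and river male 6. ndufa7 and atp5if1a are lower and ndufaf1 and timm23a higher at spawning, and spawning female 5 keeps the highest ndufa7 and atp5if1a of its group. River male 6 lies within the range of the spawning males in ndufaf1 and timm23a only. In ndufa7 and atp5if1a all river males lie above all spawning males (lowest river 37.1 and 21.5, highest spawning 25.6 and 17.0 CPM).

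Spawning female 5 had the highest summed complex I and ATP synthase levels of its group. Its complex I subunits summed to 3043 CPM against 1207 to 1569 CPM in the other spawning females and 1433 to 2094 CPM in ocean females, and its ATP synthase genes to 1442 CPM against 385 to 657 and 770.5 to 1162 CPM. Without it, 9 members rose and 17 fell in female muscle. Among the falls were 7 complex I subunits and 5 ATP synthase genes, and the medians of those 2 groups were -0.60 and -1.05. Leaving out the library with the highest sums lowers these medians by construction. These counts and medians are thus no separate evidence of a fall, and no likeness to the males is read from them. The same library had 339 CPM of myoz2b, the only slow fibre marker that passed the filter, against 67.8 to 90.8 CPM in the other spawning females and 74.4 to 162 CPM in ocean and river females, and 71940 CPM of summed fast fibre markers against 26250 to 39270 CPM in the other spawning females. The part of fibre make-up in the result was not tested.

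Few members separated river from ocean muscle. No member was called between ocean and river in females (0.0415% of all genes were called, 3 members had an unadjusted p under 0.05, and DESeq2 called none) or in males (0.145% of all genes, 10 members with an unadjusted p under 0.05, and DESeq2 called 1); by library size alone 1 member was called in females and 24 rose in males. From river to spawning 10 members rose and 3 fell in females (24.9% and 23.5% of all genes), with ndufaf1 at 2.04 ± 0.33 and atp5if1a at -1.66 ± 0.40 on the log2 scale (adjusted p = 2.20e-04 and 0.00381), and 7 were called without river female 7. In males 1 rose and 7 fell (8.36% and 14.9% of all genes). Without river male 6 these became 11 rises and 13 falls, while without spawning male 7, 8 or 9 they were 3, 0 and 2 calls in all and without river male 4 they were 5. River male 6 held 24.9 CPM of ndufaf1 against 2.02 to 5.00 in the other river males, 64.0 CPM of timm23a against 21.99 to 27.6, and 33.8 CPM of tomm20a against 9.48 to 13.4. From ocean to spawning in males its absence left 11 rises and 16 falls.

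Ocean muscle and ocean head kidney differed widely in these genes. In a joint fit of both tissues and sexes, 44 of 53 tested members were higher in muscle and 3 lower (28.1% and 44.5% of all genes), with all 17 complex I subunits and all 8 ATP synthase genes among the higher. The CPM of this fit are scaled over all its libraries, so they differ from those given above. ndufc2 was at 421 ± 137 CPM (SD, n = 4) in ocean male muscle and 14.8 ± 7.92 CPM (SD, n = 4) in ocean male head kidney, and at 637 ± 81.4 CPM (SD, n = 4) in ocean female muscle against 12.8 to 19.95 CPM in the 4 ocean female head kidneys (5.12 ± 0.32 over both sexes, adjusted p = 3.60e-17). ndufs7, a core subunit that carries an iron-sulfur cluster, was higher by 3.53 ± 0.21 (adjusted p = 4.21e-18), and pdhb, a subunit of the pyruvate dehydrogenase that feeds the cycle, by 3.52 ± 0.28 (adjusted p = 1.64e-14). The 3 members lower in muscle were ucp2 (-3.31 ± 0.34, adjusted p = 2.09e-11), tomm22 (-1.10 ± 0.23, adjusted p = 4.32e-05) and mdh1b (-3.98 ± 1.30, adjusted p = 0.0071). This fit took the muscle and head kidney libraries of the same fish as independent. With fish as a block, the adjusted p was 2.41e-10 for ndufc2, 1.24e-09 for ndufs7 and 1.19e-08 for pdhb. It was 8.47e-08 for ucp2, 0.00125 for tomm22 and 0.0177 for mdh1b, and each kept its call. By library size alone the median of all genes was -2.78 in place of -0.59, and 15 members were higher and 19 lower in muscle, with dlst (-0.77), ogdha (-0.59), timm23a (-0.27) and tomm20a (-1.48) turned to the head kidney side.

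The change from ocean to spawning itself differed between muscle and head kidney for 19 members: 10 were shifted up in muscle relative to head kidney and 9 down (16.8% and 17.5% of all genes). The member counts lie near these shares. With fish as a block, since muscle and head kidney were taken from the same numbered fish, 6 were shifted up and 6 down. ndufaf2 (1.19 ± 0.23, adjusted p = 7.91e-05), idh3b (1.12 ± 0.23, adjusted p = 1.58e-04) and timm23a (1.20 ± 0.31, adjusted p = 0.00227) were shifted up and kept their calls under the block (adjusted p = 0.01, 0.00361 and 0.023). atp5if1a (-1.49 ± 0.31, adjusted p = 2.11e-04) and atp5pf (-1.79 ± 0.41, adjusted p = 6.43e-04) were shifted down and kept theirs (adjusted p = 0.0064 and 0.0313). tomm20a, tomm20b and ogdha were called without the block and not with it (adjusted p = 0.0611, 0.102 and 0.209). Without spawning female 5 muscle 9 members were shifted up and 20 down, and by library size alone 29 up and none down.

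In head kidney no member other than ucp2 was called from ocean to spawning with all libraries, 4 were called in males without ocean male 8 and 2 without river male 3, river male 5 or spawning male 9, and no member differed between the sexes in that change (0% of all genes called, no member with an unadjusted p under 0.05). The head kidney library of ocean male 8 was high in import genes, with tomm20a at 50.4 CPM against 18.6 to 20.3 CPM in the other ocean males and tomm20b at 40.2 against 11.9 to 16.6 CPM. mdh1b, a malate dehydrogenase family gene, was the only member called from river to spawning in males (-5.79 ± 1.40, adjusted p = 0.028, against 9.22% of all genes called). Its river libraries held 14.4, 0.95, 1.96 and 20.1 CPM and its spawning libraries 0, 0, 0.535 and 0.115 CPM. Leaving out river male 2 or 6 or spawning male 6, 7 or 10 ended the call (adjusted p = 0.0632 to 0.0796). Across the same river males in the same order, 6 renal tubule markers summed to 605, 6.87, 8.20 and 1387 CPM. The 45 genes of the sperm flagellum list summed to 720, 106, 249 and 867 CPM in that order. This list also summed to 590 to 786 CPM in ocean female head kidneys, so it is not particular to sperm. In spawning males the tubule markers summed to 4.72 to 165 CPM. The part of both lists in the result was not tested. No member was called from river to spawning in females (8.46% of all genes, 6 members with an unadjusted p under 0.05, DESeq2 called 2, and 2 were called without spawning female 5 and 1 without spawning female 4) or from ocean to river in males (4 members with an unadjusted p under 0.05, and DESeq2 called none).

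In the ovary most called members fell by less than a log2 unit, and ndufs4 and ucp2 rose. ndufs4, an accessory subunit of complex I, was at 24.1, 20.2, 20.5 and 19.3 CPM in ocean ovaries, 22.9, 23.4, 22.9 and 27.3 CPM in river ovaries and 61.5, 84.2, 75.9, 102 and 82.0 CPM in spawning ovaries. Spawning stood apart from both other stages, with a log2 fold change of 1.95 ± 0.14 from the ocean (adjusted p = 2.06e-06) and 1.75 ± 0.14 from the river (adjusted p = 4.37e-06). It was the 1 complex I subunit of 17 that rose, beside 7 that fell. From ocean to spawning it was not called in muscle, head kidney or testis, with log2 fold changes between -0.62 in the testis and 0.43 in female head kidney.

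Falls in the ovary took in 7 complex I subunits, 3 ATP synthase genes, etfb, 4 inner and 4 outer membrane import genes. ndufs6 went from 21.2, 25.3, 18.3 and 18.4 CPM in the ocean to 9.17, 7.57, 13.9, 11.5 and 9.88 CPM at spawning (-1.0003 ± 0.18, adjusted p = 0.00115). atp5mj, a small membrane subunit of ATP synthase, went from 43.3, 36.1, 31.3 and 33.0 to 14.8, 14.7, 23.3, 18.5 and 21.8 CPM (-0.95 ± 0.17, adjusted p = 0.00108), and neither gene overlapped between the stages. Among import genes, timm8a and timm9, small chaperones of the intermembrane space, fell by 0.83 ± 0.23 and 0.68 ± 0.19 (adjusted p = 0.0147 and 0.0148), and tomm6 and tomm7, small subunits of the outer channel, by 0.86 ± 0.18 and 0.59 ± 0.13 (adjusted p = 0.0026 and 0.00298). By library size alone 3 members rose and 11 fell, with the median of all genes at 0.16. No member was called between ocean and river (0% of all genes, 3 members with an unadjusted p under 0.05, and DESeq2 called none), and from river to spawning 3 rose and 24 fell (16.8% and 21% of all genes), with ndufb7 at -0.90 ± 0.13 and tomm7 at -0.90 ± 0.13 on the log2 scale (adjusted p = 1.91e-04 and 1.60e-04). Summed ovarian somatic markers went from 36.0 to 111 CPM in the ocean up to 286 to 860 CPM at spawning and erythrocyte markers from 59.8 to 816 down to 13.1 to 67.9 CPM, and their part in these results was not tested.

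The testis showed the largest changes in single members, beside the loss of germ cell marker RNA given above. There, 9 testis somatic markers summed to 125 to 250.0 CPM in the ocean and 16100 to 42320 CPM at spawning, and 46 sperm flagellum markers to 9369 to 15910 CPM in the ocean, 18390 to 31690 CPM in the river and 96.3 to 363 CPM at spawning. The part of cell make-up in the results for the testis was not tested, and 84% of all genes were called from ocean to spawning. mdh1b was at 110.5, 158, 151, 129 and 149 CPM in ocean testes and 232, 272, 347, 226 and 318 CPM in river testes. At spawning 4 libraries held no count and the library of male 10 held 11 counts (0.67 CPM), where ocean libraries held 1588 to 2766 counts (log2 fold change -9.90 ± 0.67, adjusted p = 1.95e-09).

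Copies of the same gene parted in the testis. tomm20a rose from 8.91, 14.7, 10.7, 10.3 and 20.6 CPM in the ocean to 30.8, 39.4, 28.5, 20.2 and 31.8 CPM at spawning (1.21 ± 0.29, adjusted p = 0.00102), with 1 ocean library above the lowest spawning library. tomm20b fell from 56.5, 71.0, 45.7, 55.6 and 44.3 to 13.2, 13.6, 9.20, 7.99 and 6.88 CPM with no overlap (-2.42 ± 0.22, adjusted p = 4.33e-08). atp5if1b rose from 2.16, 2.51, 4.20, 2.78 and 2.74 to 55.5, 72.0, 40.9, 38.3 and 29.4 CPM (4.03 ± 0.34, adjusted p = 2.44e-08), while atp5if1a was at 16.1, 27.9, 30.9, 24.5 and 28.9 CPM in the ocean, 58.5, 52.2, 64.5, 50.2 and 87.7 CPM in the river and 40.8, 41.6, 29.8, 28.2 and 24.7 CPM at spawning. atp5if1a rose from ocean to river (1.29 ± 0.21, adjusted p = 7.01e-04) and was not called from ocean to spawning.

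**Figure D5:**
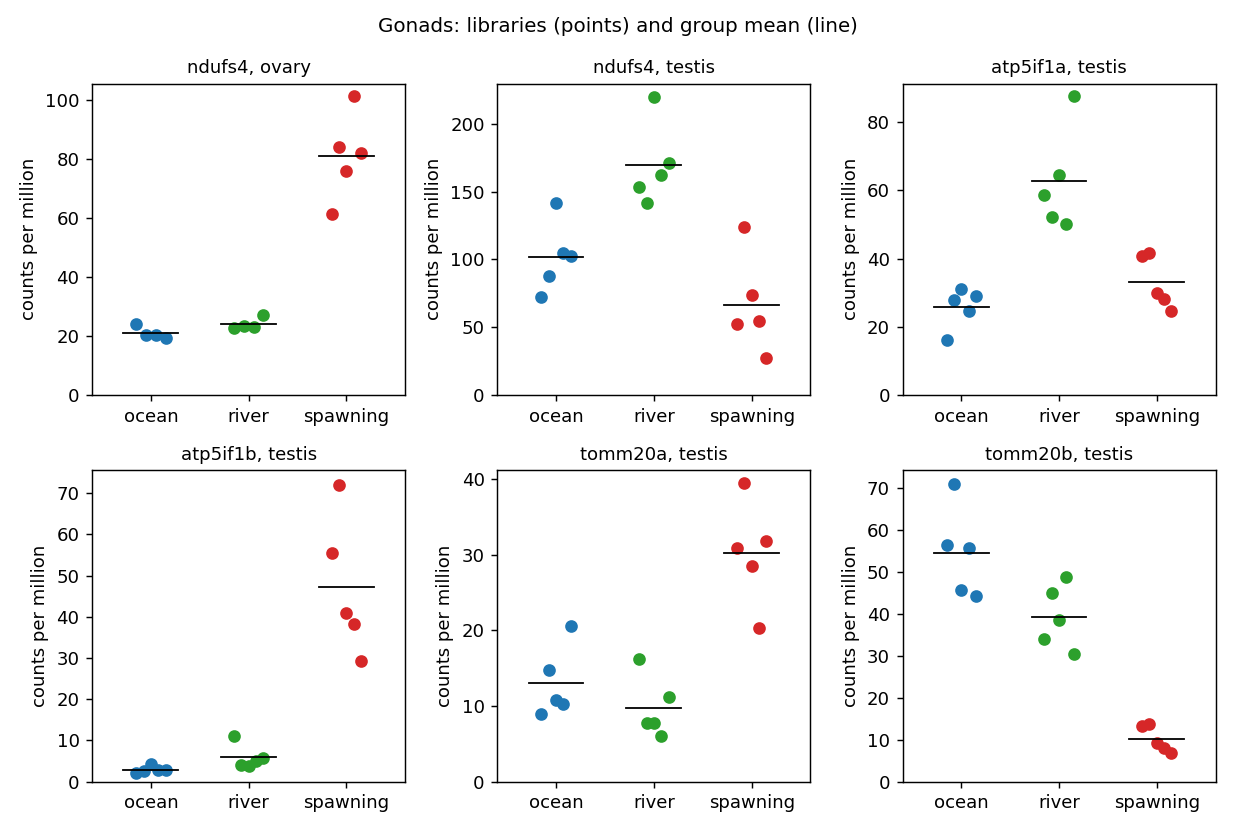
CPM of selected members in every gonad library (points) by stage with the group mean (line). Among ovaries, ndufs4 is highest at spawning (61.5 to 102). Ocean and river testes hold 72.0 to 220.2, but ovaries and testes were scaled apart, so these ranges are not compared. In the testis tomm20a and tomm20b move in opposite directions, and atp5if1b rises at spawning where atp5if1a is highest in the river.

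Among the members, the 2 genes of the 2-oxoglutarate dehydrogenase complex that were tested in the testis also parted. ogdha rose from 262, 309, 327, 330.1 and 279.7 CPM in the ocean to 1659.5, 1069, 994, 1108 and 602 CPM at spawning (1.85 ± 0.23, adjusted p = 1.55e-06). dlst, the second enzyme of the complex, fell from 18.9, 21.1, 20.3, 22.7 and 20.4 to 5.00, 4.11, 3.38, 2.90 and 2.98 CPM (-2.49 ± 0.19, adjusted p = 6.52e-09). Neither gene overlapped between the stages. dlst was already lower in the river, at 10.7, 13.1, 13.2, 14.8 and 9.17 CPM (-0.76 ± 0.18, adjusted p = 0.00492).

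Among the complexes, 10 of 17 complex I subunits fell and 3 rose in the testis, and 4 of 8 ATP synthase genes fell and 1 rose. Of all genes, 43.2% fell and 40.7% rose. ndufs7 fell by 1.88 ± 0.18 (adjusted p = 8.04e-08), ndufa8, an accessory subunit, by 1.40 ± 0.14 (adjusted p = 1.06e-07) and atp5mc3b by 2.77 ± 0.25 (adjusted p = 3.79e-08), while ndufc2 rose by 0.88 ± 0.17 (adjusted p = 2.12e-04) and ndufs8a, a core subunit, by 0.60 ± 0.14 (adjusted p = 0.00103). sdhaf1, which helps to insert the iron-sulfur clusters of complex II, went from 10.9, 6.11, 9.44, 6.48 and 11.6 CPM to 0.649, 0.596, 0.297, 0.354 and 0.548 CPM (-4.16 ± 0.30, adjusted p = 3.55e-09). ndufaf1 fell in the testis (-2.35 ± 0.40, adjusted p = 5.41e-05), the opposite of its direction in muscle. tomm34 fell by 2.40 ± 0.17 (adjusted p = 4.16e-09) and etfbkmt, a methyltransferase named for its substrate etfb, by 2.41 ± 0.22 (adjusted p = 4.38e-08). From ocean to river 6 members rose and 11 fell (25.8% and 13.4% of all genes), with ndufaf2 up by 1.02 ± 0.15 (adjusted p = 3.16e-04) and timm22 down by 1.11 ± 0.27 (adjusted p = 0.00611). From river to spawning 14 rose and 26 fell (38.8% and 41.8% of all genes).

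Other genes of mitochondrial metabolism were described from listed symbols. In muscle all fatty acid oxidation genes that were called fell from ocean to spawning, 8 of 10 tested in females and 10 of 10 in males, among them decr1, a reductase for unsaturated fatty acids (-4.38 ± 0.44 and -2.96 ± 0.60, adjusted p = 9.85e-06 and 0.00414). pdk1 and pdk4, kinases that switch off pyruvate dehydrogenase, rose in both sexes (pdk1 by 2.48 ± 0.38 and 2.38 ± 0.58), and another kinase of the family, pdk2a, fell by 5.16 ± 0.61 and 5.61 ± 0.97. Of 7 biogenesis genes 3 fell in each sex, including twnk, the mitochondrial DNA helicase, by 2.06 ± 0.47 and 2.25 ± 0.45, and in females ppargc1a, a coactivator of mitochondrial biogenesis, by 3.16 ± 0.56 (adjusted p = 4.63e-04). Of 6 proteases and chaperones 4 rose and 1 fell in females and 3 rose in males, clpxa, a copy of the gene for the matrix unfoldase, by 2.15 ± 0.29 and 2.19 ± 0.46. Of 52 mitochondrial ribosome genes 10 rose and 6 fell in females and 8 rose and 9 fell in males. Of all genes, 25.8% rose and 24.7% fell in females, and 20.2% rose and 20% fell in males.

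Head kidney showed no called mitochondrial ribosome gene in either sex. Few genes were called there from ocean to spawning: 4.77% of all genes rose and 3.15% fell in females, and 4.17% and 2.6% in males. In ovaries 16.3% of all genes rose and 20% fell. There, 1 of 52 mitochondrial ribosome genes rose and 14 fell, and 6 of 10 fatty acid oxidation genes fell, among them acaa2, a thiolase, by 1.24 ± 0.15 (adjusted p = 5.21e-05). In testes 40.7% of all genes rose and 43.2% fell. There, 3 of 52 ribosome genes rose and 38 fell, and 6 of 7 biogenesis genes fell, twnk by 3.99 ± 0.34 (adjusted p = 2.26e-08). The fatty acid oxidation genes went the other way there, with 6 rises and 1 fall of 10, cpt1ab, a copy of the gene that admits fatty acids to mitochondria, by 3.92 ± 0.31 and acadvl, the very long chain dehydrogenase, by 4.13 ± 0.35 (adjusted p = 1.08e-08 and 2.53e-08). Of 24 mitochondrial carriers 12 rose and 6 fell in the testis, slc25a25a, a calcium-regulated ATP carrier, by 6.75 ± 0.27 (adjusted p = 7.68e-12), while its copy slc25a25b fell by 2.49 ± 0.22 (adjusted p = 4.09e-08).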

How the data were processed

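RNA-seq libraries of muscle, head kidney and gonads (76 libraries) were made from poly(A) RNA, per the labels' protocols. The authors deposited estimated counts per gene, of which 36.4% were not whole numbers. Salmon (1.8.0), R (4.3.3) and Trim Galore (0.6.4) are listed, without their roles, per the submitters' processing notes; the genome build and annotation are not given in the sources used here. Total counts ran from 15784611 to 29286325 per library in muscle, 13651505 to 18724203 in head kidney and 12719694 to 17696550 in gonads, and low counts limit the precision of ogdhb, mdh1b and muscle ucp2.

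Counts were rounded and tested with edgeR 4.0.16 (limma 3.58.1, R 4.3.3) by the quasi-likelihood test, after filterByExpr and TMM scaling, with 1 fit for each tissue and sex over the 3 stages, fits with a sex by stage interaction, and a joint fit of muscle and head kidney. P-values were adjusted by Benjamini-Hochberg over all genes tested. Each SE is the absolute log2 fold change divided by the square root of the F statistic of the quasi-likelihood test, and is approximate. The steps were tested on simulated counts. These held equal numbers of rises and falls in a small set of genes, so they could not show the effect of the choice of scale. Alternatives were DESeq2 1.42.0, RLE scaling, library size only, no filter, a replicate block, and leaving out each library. Muscle and head kidney libraries with the same number, stage and sex came from the same fish by their labels; their deviations from group means correlated with a median r of 0.126 over 20 pairs (-0.244 to 0.319), against -0.036 over 76 other pairs. Levels of different genes were not compared.

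Named genes were up to 2 called members per role and direction by adjusted p from ocean to spawning, up to 2 per direction in the other contrasts, preset members of each pathway step, and up to 2 per direction of each other list; further members were named after their values were seen. 1 result is not reported here. The members and lists were chosen with earlier results of these data known.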

Additional observations from a re-analysis of the deposited data

Results flagged for a closer look

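Among 14 members, 25 of 233 groups of 4 or more libraries held 1 library far from the rest of its group; the 95% critical value of Dixon's test, which was used, flags about 1 in 20 groups by chance. In CPM, the muscle library of river male 6 was high in ndufaf1 (24.9 against 2.02 to 5.00), ndufc2 (997 against 241 to 397), timm23a (64.0 against 21.99 to 27.6), tomm20a (33.8 against 9.48 to 13.4), tomm20b (20.3 against 4.83 to 9.17) and ucp2 (2.71 against 0.237 to 0.571). The head kidney library of ocean male 8 was high in atp5pf (19.8 against 12.5 to 13.3), ndufaf1 (13.9 against 7.55 to 8.62), timm23a (34.1 against 16.6 to 17.8), tomm20a (50.4 against 18.6 to 20.3), tomm20b (40.2 against 11.9 to 16.6) and tomm22 (34.6 against 17.9 to 19.2).

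In other head kidney libraries, river female 1 was high in atp5if1a (42.6 against 29.8 to 31.7) and mdh1b (11.4 against 0 to 1.00), and spawning male 9 in atp5if1a (37.5 against 22.2 to 24.2) and ndufa7 (18.1 against 12.4 to 13.3). Ocean female 2 was high in atp5if1b (31.9 against 22.5 to 23.3) and low in idh3b (64.8 against 90.9 to 93.1). In muscle, ocean male 9 was high in ndufa7 (104 against 64.7 to 69.5).

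In gonads, ocean female 2 was high in atp5if1b (16.4 against 13.6 to 13.9), river male 2 in atp5if1b (11.1 against 3.78 to 5.84), river female 9 in atp5pf (11.98 against 9.18 to 9.26) and ndufs4 (27.3 against 22.9 to 23.4), spawning female 3 in tomm20b (14.5 against 8.76 to 10.1), and spawning male 10 in mdh1b (0.670 against 0).

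The change from ocean to spawning differed between muscle and head kidney, by the test of that difference, for 19 members, of which 8 are given here. Of all genes, 16.8% were called upward and 17.5% downward in that test, and the member counts lie near these shares. The log2 difference, muscle minus head kidney, was -1.49 for atp5if1a, -1.79 for atp5pf, 1.12 for idh3b, 1.19 for ndufaf2, -0.68 for ogdha, 1.20 for timm23a, 0.92 for tomm20a and 1.12 for tomm20b. With the fish as block, ogdha, tomm20a and tomm20b were not called (adjusted p = 0.209, 0.0611 and 0.102), and ogdha changed sign by library size only (0.49).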

How the results depend on the processing

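Of 122 results for named genes, 93 kept their call and direction when any single library was left out. DESeq2 ended the call of 0 of the 121 to which it gave an adjusted p, RLE scaling of 1, no filter of 7, library size only of 20 and the replicate block of 48. By library size only, 6 changed sign, with the cause not tested: ogdha in male muscle from ocean to spawning (0.0466) and in the muscle minus head kidney difference (0.4924), and, between ocean muscle and ocean head kidney, dlst (-0.7677), ogdha (-0.5882), timm23a (-0.2703) and tomm20a (-1.4784).

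Counts of called members moved by over 1.5 times as follows. Counts under another setting or with a library left out are given here and above without the share of all genes. They are not read against it. Library size only gave 20 in female muscle from ocean to spawning, 1 from ocean to river in females and 24 in males, 3 from river to spawning in male muscle, 2 from ocean to spawning in male head kidney and 29 for the muscle minus head kidney difference. DESeq2 gave 1 from ocean to river in male muscle, 2 from river to spawning in head kidney of each sex, 2 from ocean to spawning in male head kidney and 1 for the sex difference in muscle. No filter gave 5 from river to spawning in male muscle and 0 from ocean to river in female head kidney.

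The replicate block used fish numbers that mark different fish at each stage, so across stages the samples share only a number. With this block, female muscle gave 2 calls from ocean to spawning and 0 from river to spawning, and male muscle 16 and 0. Head kidney gave 0 from ocean to spawning in both sexes, 0 from ocean to river in females and 0 from river to spawning in males. Ovaries gave 7 from river to spawning and testes 3 from ocean to river. Same-numbered libraries correlated between -0.153 and 0.1 in female muscle, 0.041 and 0.253 in male muscle, -0.132 and 0.772 in female and -0.585 and 0.375 in male head kidney, -0.322 and 0.125 in ovaries and -0.137 and 0.199 in testes. With the fish as block between muscle and head kidney the difference gave 12 calls.

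Leaving out each library gave, from ocean to spawning, 11 to 26 calls in female and 15 to 27 in male muscle, 1 to 1 in female and 1 to 4 in male head kidney, 14 to 24 in ovaries and 32 to 39 in testes. From river to spawning it gave 7 to 18, 0 to 24, 0 to 2, 0 to 1, 18 to 27 and 37 to 41 in the same order. From ocean to river it gave 13 to 21 in testes, 0 to 1 in female head kidney and 0 to 0 in the other 4. The sex differences gave 0 to 0, the muscle minus head kidney difference 17 to 29 and the ocean difference between those tissues 46 to 50.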
